A study of Mus musculus with 5 samples.

Results

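The Fc receptor genes examined here were Fcgr1, Fcgr2b, Fcgr3, Fcgr4, Fcer1g and Fcgrt, chosen by symbol as 6 of the 31053 genes of the deposited matrices. They were followed in 5 single-cell RNA-seq libraries of bone marrow (BM) from BALB/c mice, either untreated (naive) or given cyclophosphamide (CTX), an alkylating chemotherapy drug, by intraperitoneal injection at 150 mg/kg. In 3 libraries whole BM mononuclear cells labelled CD45+, freed of dead cells and pooled in equal numbers from 3 mice each, were taken from naive mice, at day 2 after CTX (D2 CTX) and at day 7 after CTX (D7 CTX). The other 2 libraries held BM monocytes sorted as CD11b+Ly6Chi cells, 1 from naive and 1 from CTX-treated mice, the latter with no day in the sample labels and with day 7 given in the study's description of that experiment. Each group was 1 library, mice of both sexes were used in the study and the sex behind each library is not given in the sources used here, so no difference could be set against a spread between replicates. All intervals below are exact 95% intervals that cover counting error only, and no test between conditions was possible. Where no UMI of a gene was found, the limit given is the level or share that 3 UMIs or cells would make. How many mice gave the sorted cells is not given in the sources used here.

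Fc receptors bind the constant part of antibodies. Fcgr1 encodes the high-affinity IgG receptor FcγRI, and Fcgr3 and Fcgr4 encode the activating IgG receptors FcγRIII and FcγRIV. None of the 3 signals alone: each pairs at the surface with the common γ chain encoded by Fcer1g, whose ITAM motif recruits the kinase Syk. Fcgr2b encodes the inhibitory IgG receptor FcγRIIB, which carries an ITIM motif that recruits the phosphatase SHIP-1 (Inpp5d) and is the Fcγ receptor of B cells. Fcgrt encodes the heavy chain of FcRn, which pairs with β2-microglobulin (B2m) inside cells and returns IgG and albumin to the circulation. In the marrow, neutrophils, monocytes and macrophages are known to carry different sets of these receptors.

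In the mm10 build used by the authors (GRCm38, GENCODE M21 annotation), 4 of the genes lie within 276 kb of chromosome 1. From low to high coordinates these are Fcgr2b (ENSMUSG00000026656, chr1:170958617-170976547, minus strand), Fcgr4 (ENSMUSG00000059089, chr1:171018920-171029761, plus strand), Fcgr3 (ENSMUSG00000059498, chr1:171051174-171064935, minus strand) and Fcer1g (ENSMUSG00000058715, chr1:171229572-171234365, minus strand). Fcgr1 (ENSMUSG00000015947) lies alone at chr3:96282909-96293969 and Fcgrt (ENSMUSG00000003420) at chr7:45092990-45103851, both on the minus strand. Antisense genes overlap Fcgr2b (Gm38204) and Fcgrt (Gm45669), and small RNA genes lie inside Fcgr3 and Fcgr4. Fcgr2b and Fcgr3 are close paralogs, but in the last 500 bases of the protein-coding transcripts, where 3′ libraries place most reads, only 5.1% of the 31-base words of Fcgr2b and 0.521% of those of Fcgr3 also occur in another gene. For Fcgr4 this share was 3.4%, and it was 0 for Fcgr1, Fcer1g and Fcgrt.

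Because Fcgr1, Fcgr3 and Fcgr4 encode the activating receptors, whose levels are compared between myeloid populations below, the sequence just upstream of their start sites is shown, taken from RefSeq promoters on GRCm38.p6 and written 5′ to 3′ on the strand of the gene. Capitals mark matches to 3 motifs that were searched on both strands in the 250 bases before each start: GAGGAA, a core bound by the myeloid factor PU.1 (TTCCTC on the other strand), TTCNNNGAA, the palindromic core of a STAT (GAS) site, and the core of an interferon-stimulated response element, which is GAAA, any 2 bases and GAAA again.

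Fcgr1, chr3:96293970-96294119, minus strand: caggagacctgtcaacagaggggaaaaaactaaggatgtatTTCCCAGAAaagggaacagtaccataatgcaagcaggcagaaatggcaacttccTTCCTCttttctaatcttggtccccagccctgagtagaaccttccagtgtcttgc
Fcgr3, chr1:171059404-171059553, minus strand: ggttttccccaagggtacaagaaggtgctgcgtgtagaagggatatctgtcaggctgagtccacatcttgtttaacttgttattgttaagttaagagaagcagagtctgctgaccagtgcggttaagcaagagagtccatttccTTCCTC
Fcgr4, chr1:171018776-171018919, plus strand: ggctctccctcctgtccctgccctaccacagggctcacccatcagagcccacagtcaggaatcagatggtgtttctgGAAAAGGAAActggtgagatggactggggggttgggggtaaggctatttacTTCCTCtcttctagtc

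GAGGAA was present in the windows of these 3 genes and in none of the windows of Fcgr2b, Fcer1g and Fcgrt, against 23.4% of 32536 promoter windows of the same length. TTCNNNGAA was present in Fcgr1 alone among the 6 genes (7.04% of all windows) and the interferon-response core in Fcgr4 alone (2.98% of all windows). The matches did not overlap each other. They describe the letters in these windows and say nothing of which factor is bound there.

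The libraries held 2223 to 8605 barcodes, of which 1891 to 8290 had at least 200 genes and under 20% mitochondrial UMIs and were kept, and the study states more cells per library than the files hold barcodes. Kept cells carried 22279758 to 67921924 UMIs per library, with a median of 3033.5 to 10299 UMIs per cell. Between 2 and 16 cell barcodes were shared by any pair of libraries. Cells of whole BM were assigned to gates from 19 lists of marker genes, none of which contains an Fc receptor gene studied here. A gate is a range of a per-cell score, and 298, 415 and 178 cells of the naive, D2 CTX and D7 CTX libraries stayed unassigned. They held 5.37%, 11.6% and 2.66% of kept UMIs, and 145, 184 and 81 of them lay near a limit. In the sorted libraries, 93.0% (naive) and 89.7% (CTX) of kept cells fell in the Ly6c2-high monocyte gate, and no cell fell in the macrophage gate. In whole BM, 452 naive, 61 D2 CTX and 20 D7 CTX cells fell in the erythroid gate in spite of the CD45+ label.

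Across whole libraries the 6 genes moved differently after CTX. Fcgr3 was at 101 counts per 1000000 UMIs (CPM) in naive BM, 129 CPM in D2 CTX BM and 214 CPM in D7 CTX BM, with intervals of 97.9 to 104, 126 to 133 and 211 to 218 CPM. The level of Fcgr4 was 15.0 CPM in naive BM, 31.4 CPM after 2 days and 31.9 CPM after 7 days. Fcer1g, the shared signalling chain, was at 760, 754 and 1264 CPM. For Fcgr3 and Fcer1g the D7 CTX library was thus the highest of the whole BM libraries, whereas Fcgr4 was already as high in D2 CTX as in D7 CTX. Fcgr2b, the inhibitory receptor, was at 32.0, 41.5 and 37.9 CPM. Fcgr1 was at 4.1, 6.89 and 3.99 CPM, so that only the D2 CTX library stood above the others. Fcgrt was at 12.7, 10.8 and 10.8 CPM. In the sorted monocytes, naive and CTX, Fcgr1 was at 43.8 and 28.8 CPM, Fcgr2b at 86.1 and 79.3 CPM, and Fcgr3 at 316 and 317 CPM. There Fcgr4 was at 6.64 and 4.33 CPM, Fcer1g at 1623 and 1610 CPM, and Fcgrt at 98.8 and 82.6 CPM. Fcgr1 and Fcgrt were thus the members most enriched by the monocyte sort, and Fcgr4 was lower in sorted monocytes than in any whole BM library.

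**Figure D1:**
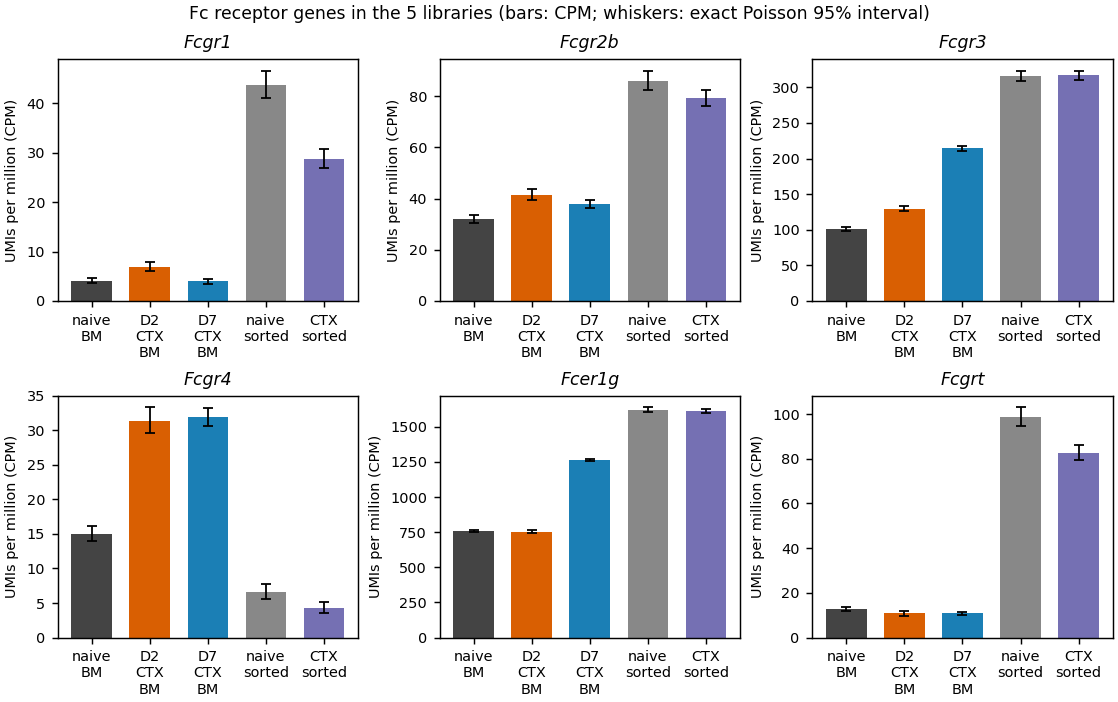
Level of each gene in CPM (UMIs of the gene per 1000000 UMIs) in the 3 whole BM libraries and the 2 sorted monocyte libraries. Bars give the CPM and whiskers the exact Poisson 95% interval of counting. Fcgr3 and Fcer1g are highest in D7 CTX among the whole BM bars, Fcgr4 is level between D2 CTX and D7 CTX, and Fcgr1 and Fcgrt are far higher in the sorted libraries.

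As log2 ratios to naive BM, Fcgr3 was at 0.36 (0.30 to 0.42) in the D2 CTX library and at 1.09 (1.04 to 1.13) in the D7 CTX library. For Fcgr4 the ratios of these libraries were 1.06 (0.92 to 1.20) and 1.09 (0.96 to 1.21), and for Fcer1g -0.01 (-0.03 to 0.01) and 0.73 (0.72 to 0.75). For counts of genes, a gene was called at 1 log2 unit on the log2(CPM + 1) scale if it held at least 200 UMIs in the compared pair and 20 CPM in 1 of them. At D2 CTX 4 members passed that filter and 1 of them, Fcgr4, was at least 1 log2 unit higher, against a background of 5.4% higher and 3.21% lower among 6221 genes. At D7 CTX 2 of 4, Fcgr3 and Fcgr4, were higher, against 1.41% higher and 22.3% lower among 5608 genes. None of the 5 members that passed in the sorted monocytes was 1 log2 unit apart, against 0.144% higher and 0.811% lower among 5549 genes. The remaining members failed the filter on low values. The median gene was at 0.17 in D2 CTX, -0.58 in D7 CTX and 0.03 in the sorted comparison, so that the members of D7 CTX stood further above the median gene than above 0. Of all genes 336 were higher and 200 lower at D2 CTX and 79 and 1250 at D7 CTX, and after scaling by the median of gene ratios 186 and 281 at D2 CTX and 474 and 344 at D7 CTX. With that scaling, Fcgr3 and Fcgr4 were at 1.68 and Fcer1g at 1.33 at D7 CTX, Fcgr4 was at 0.89 at D2 CTX, and at D7 CTX Fcgrt turned from -0.23 to 0.37 and Fcgr1 from -0.04 to 0.55. When each cell was given equal weight, Fcgr3 was at 0.75 and Fcgr4 at 0.60 at D7 CTX, both under 1 log2 unit, and Fcgr2b there turned from 0.24 to -0.06. Fcgr4 at D2 CTX was also under the 1 log2 unit limit with likely doublets left out.

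The cells behind these levels differed between the genes. The Ly6c2-high monocyte gate held 83.6% of the Fcgr1 UMIs of naive BM, 71.8% of those of D2 CTX BM and 84.1% of those of D7 CTX BM. Fcgr3, Fcgr4 and Fcer1g were carried mainly by the granulocytic gates: the pre-neutrophil and neutrophil gates held 33.5% and 31.8% of Fcgr3 UMIs in naive BM, 28.0% and 49.5% in D2 CTX BM and 51.4% and 29.2% in D7 CTX BM. For Fcgr4 they held 42.6% and 41.5% in naive BM, 25.5% and 50.2% in D2 CTX BM and 51.3% and 42.1% in D7 CTX BM. Fcgr2b was spread over several lineages, with 28.5% of its naive UMIs in the pre-neutrophil gate, 20.8% in the B lineage gate and 20.7% in the Ly6c2-high monocyte gate. At D7 CTX 59.9% of Fcgr2b UMIs lay in the pre-neutrophil gate. Fcgrt was carried by Ly6c2-high monocytes in naive BM (67.9%) and D7 CTX BM (72.6%), while at D2 CTX the macrophage gate held 31.7% and the monocyte gate 28.4%.

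The size of these gates changed with CTX, and in such sums more cells of a type and more RNA per cell cannot be told apart without the gates. The pre-neutrophil gate held 23.7% of kept cells in naive BM, 12.3% in D2 CTX BM and 53.3% in D7 CTX BM. The neutrophil gate held 20.4%, 34.8% and 24.2%. The Ly6c2-high monocyte gate held 7.08%, 2.43% and 8.37%. As a description, each gate was held at its naive level of a gene and weighted by its share of UMIs in the CTX library. The unassigned cells were treated in the same way, as a group of their own. Gate sizes alone then gave a log2 ratio of 0.71 for Fcer1g at D7 CTX, where 0.73 was observed. For Fcgr3 at D7 CTX they gave 0.65 against an observed 1.09, and for Fcgr4 0.79 against 1.09. At D2 CTX they gave 0.31 for Fcgr3 (observed 0.36), 0.55 for Fcgr4 (observed 1.06), 0.03 for Fcgr2b (observed 0.37) and -0.05 for Fcgr1 (observed 0.75). For Fcgrt at D2 CTX they gave 0.31, on the other side of 0 from the observed -0.24. These values have no replicate error, and what made the difference between an observed and a weighted ratio was not tested.

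**Figure D2:**
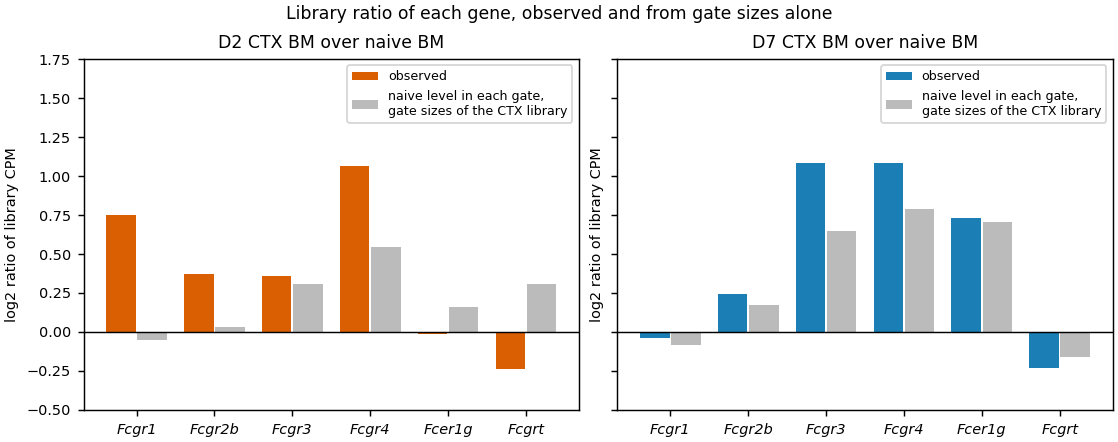
Log2 ratio of library CPM to naive BM for each gene at D2 CTX (left) and D7 CTX (right). Coloured bars are observed ratios and grey bars are the ratios given by the gate sizes of the CTX library with every gate held at its naive level. Observed and grey bars are near each other for Fcer1g at D7 CTX (0.73 and 0.71) and apart for Fcgr1 at D2 CTX (0.75 and -0.05).

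Within the granulocytic gates of naive BM, the activating receptor genes Fcgr3 and Fcgr4 followed the order from progenitor to mature cell. Fcgr3 was at 57.5 CPM (48.1 to 68.3) in the GMP gate, which is led by azurophil granule genes such as Elane and Mpo. It was at 125 CPM (119 to 132) in the pre-neutrophil gate, led by Chil3, Ltf and Camp. In the neutrophil gate, led by Gm5483, Stfa2 and Retnlg, it was at 374 CPM (355 to 393). Apart from Gm5483 and Stfa2, these leading genes are on the marker lists of their own gates, so they do not check what the cells are. Fcgr4 was at 2.2, 23.7 and 72.6 CPM along the same gates, and Fcer1g at 351, 1285 and 1751 CPM. Fcgr2b ran the other way, from 47.9 CPM (39.3 to 57.8) in the GMP gate through 33.9 CPM (30.7 to 37.2) to 18.5 CPM (14.5 to 23.2) in the neutrophil gate. None of the intervals of neighbouring gates overlapped for these 4 genes. Cells were divided among these gates by the highest score, without a margin. Fcgr1 and Fcgrt stayed under 3 CPM in all 3 gates. The same orders were seen in D2 CTX BM, where Fcgr3 was at 43.9, 179 and 366 CPM and Fcgr2b at 45.7, 37.2 and 28.1 CPM, and in D7 CTX BM, where Fcgr3 was at 113, 182 and 453 CPM and Fcgr2b at 51.6, 37.6 and 12.8 CPM. At D2 CTX the Fcgr2b intervals of the GMP gate (38.1 to 54.4) and the pre-neutrophil gate (32.8 to 42.1) overlapped.

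The UMI count of Fcgr1, Fcgr3 and Fcgr4 together over that of Fcgr2b, a ratio of molecules whose 3′ ends were counted without division by length, followed this order too. In naive BM it was 1.26 (0.97 to 1.63) in the GMP gate, 4.41 (3.96 to 4.91) in the pre-neutrophil gate and 24.2 (19.2 to 31) in the neutrophil gate. In neutrophil gate cells of D2 CTX BM it was 16.3 (13.9 to 19.1) and in those of D7 CTX BM 43.0 (35.9 to 52.0), so that the 3 libraries did not overlap. In the Ly6c2-high monocyte gate it was 4.23 (3.73 to 4.80) in naive BM, 2.73 (2.35 to 3.18) after 2 days and 4.61 (4.17 to 5.12) after 7 days. The B lineage gate stood at the other end, with 0.0521 (0.0294 to 0.086) in naive BM. Over all kept cells the ratio was 3.74 in naive BM, 4.04 at D2 CTX and 6.60 at D7 CTX, and 4.25 and 4.41 in naive and CTX sorted monocytes.

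In monocytes and macrophages of naive BM the set was different. The Ly6c2-high monocyte gate held Fcgr1 at 41.2 CPM, Fcgr2b at 79.5 CPM, Fcgr3 at 283 CPM, Fcgr4 at 11.7 CPM, Fcer1g at 1920 CPM and Fcgrt at 104 CPM. The Ly6c2-low monocyte gate, led by Ace, Adgre4 and Eno3 at D2 CTX, held 14 cells in naive BM, 30 at D2 CTX and 3 at D7 CTX, so only counts over few cells are available. Fcgr4 was at 532 CPM (329 to 814) there in naive BM and at 485 CPM (356 to 645) at D2 CTX, above the 44.6 CPM of the Ly6c2-high gate of D2 CTX BM. The macrophage gate, led by C1qa and Fcna, held 47 and 105 cells in naive and D2 CTX BM, with a median of only 731 and 812 UMIs. Fcgrt was at 630 CPM (428 to 895) and 631 CPM (521 to 756) in that gate, Fcgr4 at 224 CPM (112 to 400) and 147 CPM (96.7 to 214), and Fcgr1 at 163 CPM (70.2 to 321) and 87.0 CPM (49.7 to 141). Neutrophil marker genes summed to 5613 and 19144 CPM in the same cells, and their part in these levels was not tested.

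Outside these lineages the genes marked few cells. The basophil and mast cell gate, led by Prss34 and Mcpt8, held Fcgr3 at 325 CPM (273 to 384), Fcgr2b at 110 CPM (80.5 to 147) and Fcer1g at 1830 CPM (1703 to 1965) in naive BM, with no UMI of Fcgr1 or Fcgrt in 71 cells, where 3 UMIs would make 7.17 CPM. Fcer1a and Ms4a2, the other chains of the IgE receptor that Fcer1g completes, stood at 1293 and 1333 CPM in the same cells and at or under 2 CPM in the GMP, pre-neutrophil and neutrophil gates. NK cells held Fcer1g at 819 CPM (748 to 895) and Fcgr3 at 60.0 CPM (42.0 to 83.1). Plasmacytoid dendritic cells held Fcer1g at 701 CPM (646 to 760) and Fcgr2b at 36.5 CPM (24.8 to 51.9), with Fcgr3 at 1.18 CPM. In T cells Fcer1g was at 79.9 CPM and Fcgr3 at 5.71 CPM, and neither Fcgr1, Fcgr2b nor Fcgr4 had a UMI in 124 cells, where 3 UMIs would make 8.56 CPM.

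B cells carried Fcgr2b and almost none of the activating receptors. In naive BM Fcgr2b was at 7.24 CPM in the pro-B and pre-B gate, 44.6 CPM (39.7 to 49.8) in the B lineage gate and 76.5 CPM (57.1 to 100) in the mature B gate, while Fcgr3 was under 3 CPM in each. Fcer1g was also counted there, at 13.5 CPM in the pro-B and pre-B gate, 13.5 CPM in the B lineage gate and 52.9 CPM in the mature B gate, and in the pro-B and pre-B gate of D2 CTX BM it was at 58.7 CPM. The B lineage gate was led by Myl4, Gm30211 and 4930597A21Rik in naive BM, none of them on its own marker list. Over the 3 B cell gates together Fcgr2b was at 38.8 CPM in naive BM, 65.9 CPM at D2 CTX and 16.8 CPM at D7 CTX. The gates were also of different sizes, since the mature B gate held 264, 577 and 20 cells, the B lineage gate 1405, 932 and 119 cells and the pro-B and pre-B gate 261, 119 and 63 cells. Within the B lineage gate alone Fcgr2b was at 44.6, 74.8 (64.4 to 86.5) and 20.6 CPM (13.3 to 30.4), and the 3 intervals did not overlap. The cells of this gate also differed. It was led by Reln, Rag1 and 4930597A21Rik at D2 CTX and by Vpreb3, Myl4 and Ebf1 at D7 CTX, some of them also leading in naive BM. Its median depth was 2806, 2385 and 8151 UMIs in naive, D2 CTX and D7 CTX BM, and the part of these differences in the Fcgr2b levels was not tested. In the mature B gate Fcgr2b was at 76.5 and 79.4 CPM in naive and D2 CTX BM, with intervals that overlapped. At D7 CTX the 20 cells of the mature B gate held no Fcgr2b UMI, where 3 UMIs would make 39.7 CPM.

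**Figure D3:**
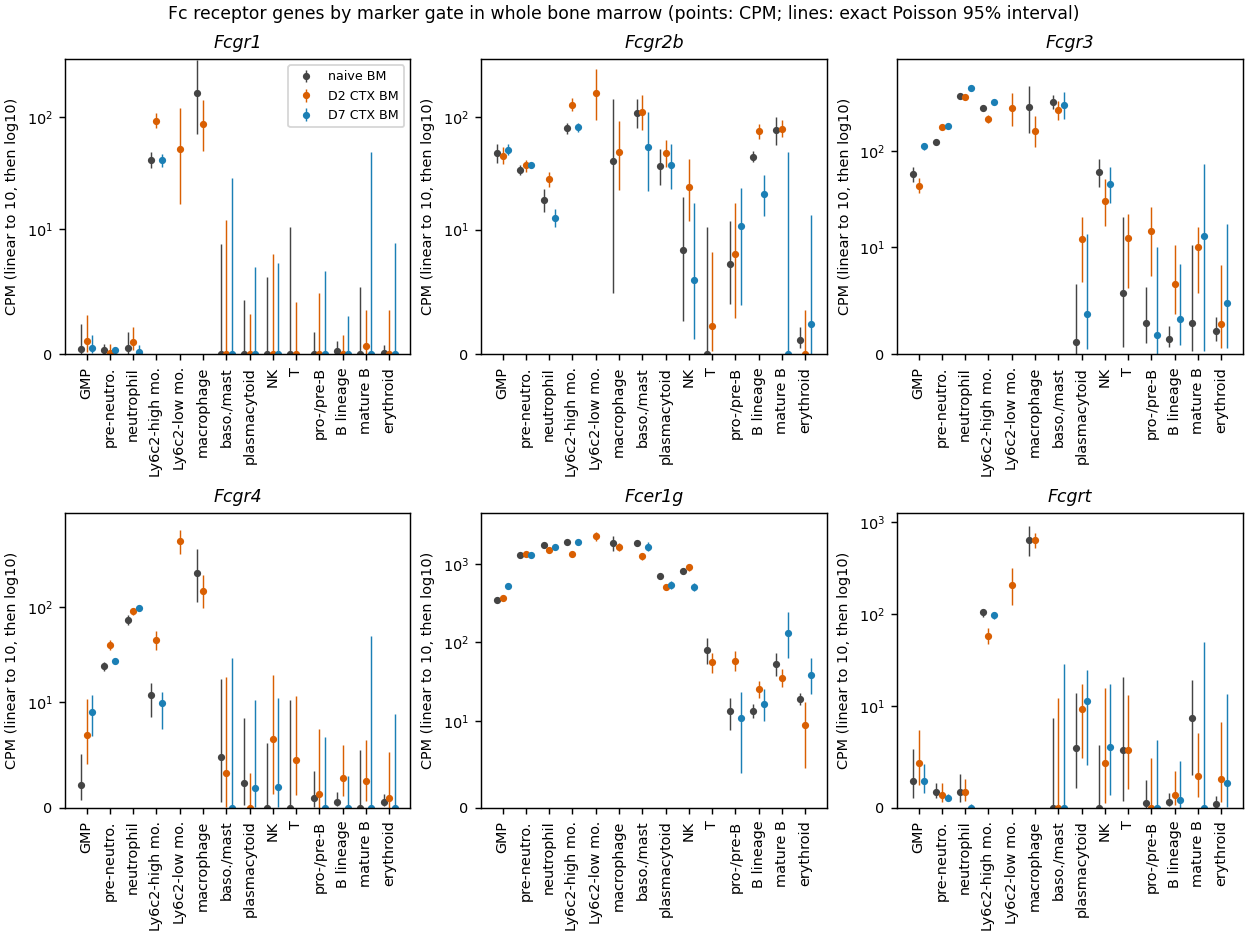
Level of each gene in CPM by marker gate in naive (grey), D2 CTX (orange) and D7 CTX (blue) whole BM, on an axis that is linear to 10 CPM and log10 above. Points are CPM and lines the exact Poisson 95% interval, and gates with under 20 cells in a library are left out. Fcgr3 is highest in the neutrophil gate, Fcgr4 in the Ly6c2-low monocyte gate, Fcgrt in the macrophage gate, and Fcgr2b and Fcer1g are the members above 10 CPM in the naive mature B and B lineage gates.

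The share of cells with a UMI gave the same picture at equal depth. After every whole BM cell was thinned to 1000 UMIs, Fcer1g was found in 87.0% of Ly6c2-high monocytes and 82.3% of neutrophil gate cells of naive BM, against 8.13% of T cells. Without thinning these shares were 98.8%, 94.6% and 12.1%, at median depths of 6404, 2594 and 2700.5 UMIs per cell. Fcgr3 was found after thinning in 32.4% (29.9 to 35.0) of naive neutrophil gate cells, 30.5% (28.3 to 32.7) of those of D2 CTX BM and 37.4% (35.2 to 39.6) of those of D7 CTX BM, against 0.813% of naive T cells. Unthinned, these shares were 60.0%, 56.8% and 84.0%, at median depths of 2594, 2698 and 4590.5 UMIs, against 1.61% of naive T cells. No neutrophil gate cell of any library held an Fcgr1 UMI after thinning, and in naive BM 3 such cells would make 0.223% of 1347 cells. Cells of this gate under 1000 UMIs, which were not counted, numbered 103 in naive BM, 426 in D2 CTX BM and 21 in D7 CTX BM.

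Monocytes of D2 CTX BM stood apart from those of the other 2 whole BM libraries in all 6 genes. In the Ly6c2-high monocyte gate, with 503 naive, 149 D2 CTX and 694 D7 CTX cells, Fcgr1 was at 41.2, 92.6 and 41.0 CPM. Fcgr4 was at 11.7, 44.6 and 9.9 CPM, and Fcgr2b at 79.5, 129 and 81.7 CPM. These 3 receptor genes were thus higher at D2 CTX and back at the naive level at D7 CTX. The shared chain Fcer1g was at 1920, 1334 and 1935 CPM, Fcgr3 at 283, 216 and 326 CPM and Fcgrt at 104, 57.3 and 96.1 CPM, each lowest at D2 CTX. For none of the 6 genes did the D2 CTX interval overlap that of naive BM or of D7 CTX.

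The log2 ratios of D2 CTX to naive in this gate were 1.17 (0.85 to 1.49) for Fcgr1, 1.93 (1.38 to 2.49) for Fcgr4, 0.70 (0.45 to 0.95) for Fcgr2b, -0.39 (-0.56 to -0.22) for Fcgr3, -0.53 (-0.59 to -0.46) for Fcer1g and -0.85 (-1.18 to -0.54) for Fcgrt. Of the 5 members that passed the filter, Fcgr1 was at least 1 log2 unit higher and none lower, against 2.76% higher and 1.02% lower among 4027 genes. Fcgr4 held too few UMIs for that filter. At D7 CTX none of 5 was 1 log2 unit apart, against 0.318% higher and 0.262% lower among 5341 genes, and the largest ratio of a member that passed was 0.20 (0.09 to 0.31) for Fcgr3. After thinning, an Fcgr1 UMI was found in 4.61% (2.94 to 6.84) of 499 naive monocytes, in 14.9% (9.56 to 21.6) of 148 D2 CTX monocytes and in 5.63% (4.03 to 7.61) of 693 D7 CTX monocytes. It was found in none of 123 naive and 278 D2 CTX T cells, where 3 cells would make 2.44% and 1.08%. Without thinning these shares were 19.7%, 51.0% and 20%, at median depths of 6404, 8581 and 7133.5 UMIs.

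Other measures of these cells also differed at D2 CTX. In this gate MHC class II genes summed to 953 CPM in naive BM, 2721 CPM after 2 days and 399 CPM after 7 days, and the neutrophil marker list to 4221, 7053 and 6063 CPM. Cells with at least 0.5% of their UMIs in MHC class II genes numbered 22, 29 and 12. Without them Fcgr1 was at 36.5 CPM in naive and 77.1 CPM (64.2 to 91.7) in D2 CTX monocytes, Fcgr4 at 8.91 and 39.8 CPM and Fcgrt at 99.7 and 47.1 CPM, and the intervals of these 3 genes still did not overlap. Fcgr2b without them was at 74.0 CPM (65.5 to 83.3) and 94.8 CPM (80.5 to 111), which overlapped. Fcgr4 was at 89.9 CPM in the neutrophil gate of the same library, and the part of neutrophil RNA in the monocyte value was not tested. The 3 B cell gates, of a lineage known for Fcgr2b alone among Fcγ receptors, held Fcgr4 at 0.62 CPM in naive and 2.51 CPM in D2 CTX BM. Fcgr3 was there at 1.87 and 8.99 CPM, Fcer1g at 16.3 and 33.9 CPM, Fcgrt at 1.14 and 1.67 CPM and Fcgr1 at 0.21 CPM in both. The part of RNA from other cells in these values was not tested.

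In the neutrophil gate Fcgr2b, Fcgr3, Fcgr4 and Fcer1g stayed within 1 log2 unit of naive BM. Fcgr2b differed most of the 4 on that scale and in opposite directions, at 18.5 CPM in naive BM, 28.1 CPM at D2 CTX and 12.8 CPM at D7 CTX, with log2 ratios of 0.60 (0.20 to 1.02) and -0.53 (-0.96 to -0.09), the second under the filter on low values. Fcgr3 was at 374, 366 and 453 CPM in naive, D2 CTX and D7 CTX BM, Fcgr4 at 72.6, 89.9 and 97.1 CPM, and Fcer1g at 1751, 1512 and 1672 CPM. The highest Fcgr3 and Fcgr4 levels were both those of D7 CTX. The log2 ratios at D2 CTX were -0.03 (-0.13 to 0.06) for Fcgr3 and 0.31 (0.10 to 0.52) for Fcgr4, where the median gene stood at 0.30. At D7 CTX they were 0.28 (0.19 to 0.36) for Fcgr3 and 0.42 (0.23 to 0.62) for Fcgr4, where the median gene stood at -0.21. No member that passed the filter (4 at D2 CTX and 3 at D7 CTX) was 1 log2 unit apart. The background at D2 CTX was 2.78% higher and 0.398% lower among 3771 genes, and at D7 CTX 0.585% higher and 2.65% lower among 3589 genes.

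Earlier granulocytic cells differed more in Fcgr3. In the pre-neutrophil gate it was at 125 CPM (119 to 132) in naive BM, 179 CPM (169 to 189) in D2 CTX BM and 182 CPM (178 to 186) in D7 CTX BM, with log2 ratios of 0.51 and 0.54 beside median genes at 0.25 and -0.17. In the GMP gate it was at 57.5, 43.9 and 113 CPM, a log2 ratio of 0.97 (0.69 to 1.25) at D7 CTX. Fcgr4 in the pre-neutrophil gate was at 23.7, 39.6 (35.0 to 44.6) and 27.1 CPM, highest at D2 CTX. Fcer1g in that gate was at 1285, 1326 and 1298 CPM, all within 0.05 of each other on the log2 scale. The GMP gate of D2 CTX held only 72 cells, with a median of 34751 UMIs against 11217 in naive BM, and the part of that depth in its values was not tested.

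**Figure D4:**
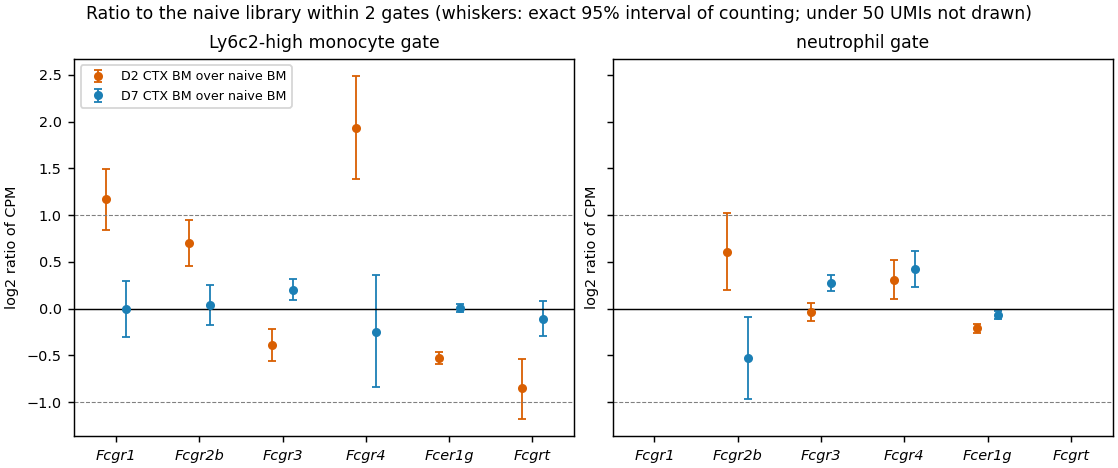
Log2 ratio of CPM to naive BM within the Ly6c2-high monocyte gate (left) and the neutrophil gate (right), at D2 CTX (orange) and D7 CTX (blue). Points are ratios, whiskers exact 95% intervals of counting, dashed lines mark 1 log2 unit, and pairs with under 50 UMIs are not drawn. In monocytes all 6 orange points lie off 0, with Fcgr1, Fcgr2b and Fcgr4 above and Fcgr3, Fcer1g and Fcgrt below, and the blue points lie near 0.

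In sorted monocytes, which the study used to compare classical monocytes of naive and CTX-treated mice, 4 of the 6 genes were lower the higher the content of azurophil granule transcripts, over cells that also differed in cycling. Cells were split by the share of their UMIs in Mpo, Elane, Prtn3, Ctsg and Ms4a3, after 22 naive and 58 CTX cells rich in specific granule genes were set aside. From the lowest share (under 0.01%) to the highest (1% or more), Fcgr1 went from 77.7 to 4.04 CPM in naive and from 48.7 to 8.6 CPM in CTX cells. Fcgr3 went from 409 to 117 CPM and from 443 to 134 CPM, Fcer1g from 1897 to 935 CPM and from 1913 to 845 CPM, and Fcgrt from 127 to 39.0 CPM and from 113 to 24.1 CPM. Each of these 4 genes was lower in every next bin of both libraries. Fcgr2b went from 104 to 74.0 CPM and from 84.3 to 68.3 CPM, with no steady order between. Fcgr4 was at 14.1 CPM or less in every bin.

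The log2 ratio of the highest to the lowest bin was -4.27 (-6.55 to -2.71) in naive and -2.50 (-3.36 to -1.75) in CTX cells for Fcgr1, and -0.49 (-0.91 to -0.09) and -0.31 (-0.61 to -0.01) for Fcgr2b. Cells of the higher bins were deeper and more of them expressed cycling genes: from the lowest to the highest bin the median went from 8827.5 to 20042 UMIs and the share of cycling cells from 9.1% to 100% in the naive library, and from 7843 to 16871 UMIs and 15.5% to 84.3% in the CTX library. Among non-cycling cells, Fcgr1 over the 3 lowest bins was at 84.7, 67.2 and 36.5 CPM in naive and at 56.9, 46.0 and 33.6 CPM in CTX cells, and the next bin held 6 and 15 such cells, with 1 and 8 Fcgr1 UMIs (67.7 CPM, 29.2 to 133, in CTX cells). Fcgrt showed no such order among non-cycling naive cells, at 138, 130 and 132 CPM, and was at 129, 123 and 101 CPM in CTX cells. Fcgr3 was at 431, 435 and 352 CPM in naive and at 495, 470 and 376 CPM in CTX cells, and Fcer1g at 1956, 1902 and 1651 CPM and at 2051, 1968 and 1799 CPM. Against other cycling cells, azurophil-rich cells stood at a log2 ratio of 0.04 (-0.18 to 0.26) in naive and -0.20 (-0.40 to -0.01) in CTX cells for Fcgrt, and of -1.22 (-1.79 to -0.67) and -0.58 (-0.97 to -0.19) for Fcgr1. The highest bin held 35 naive cells, all of them cycling, and 102 CTX cells. In the same sorted libraries the GMP gate, scored on the same azurophil genes, held 31 naive and 97 CTX cells. How many of these lay in the highest bin was not counted, so its levels may be largely those of GMP gate cells.

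**Figure D5:**
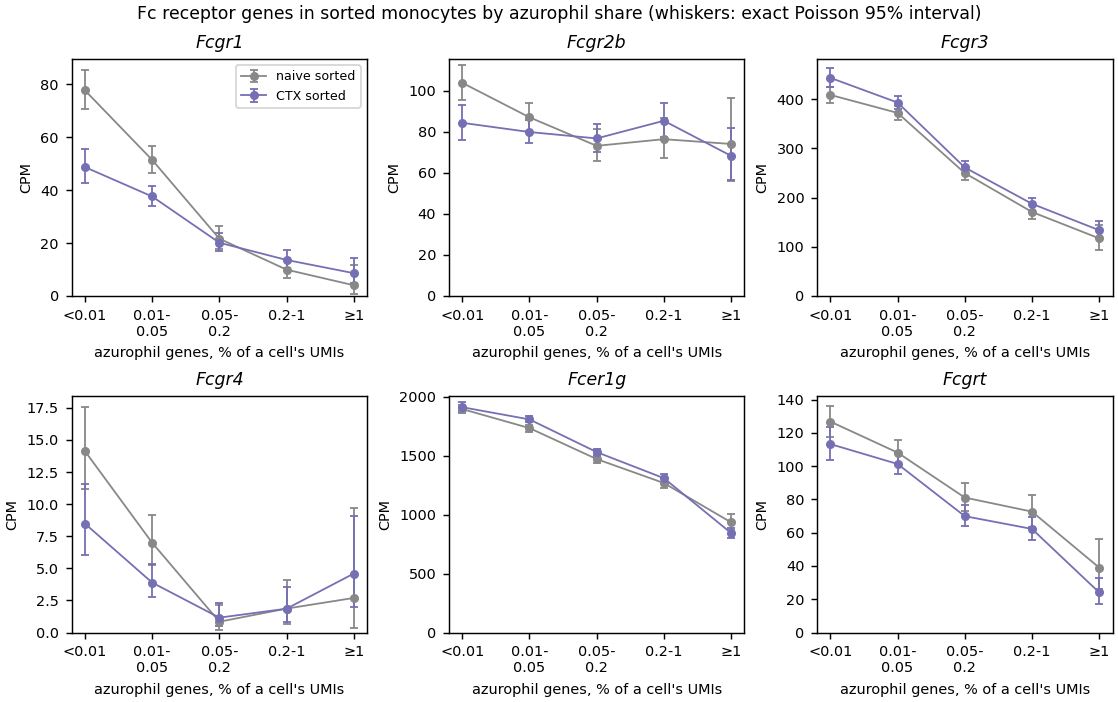
Level of each gene in CPM in sorted monocytes of naive (grey) and CTX-treated (purple) mice, by the share of a cell's UMIs in 5 azurophil granule genes. Points are CPM over the cells of a bin and whiskers the exact Poisson 95% interval. Over all cells of a bin, Fcgr1, Fcgr3, Fcer1g and Fcgrt are lower from left to right in both libraries, Fcgr2b stays between 68.3 and 104 CPM, and the Fcgr1 whiskers of the libraries do not overlap in the 2 lowest bins.

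The CTX library held more azurophil-rich cells (at least 0.2%): 403 of 2564 kept cells (15.7%) against 212 of 1891 (11.2%). Within that subset Fcgr1 was at 8.83 CPM in naive and 12.3 CPM in CTX cells, a log2 ratio of 0.48 (-0.11 to 1.09). In the cells that were neither azurophil-rich, MHC class II-rich nor cycling (1193 naive and 1396 CTX cells), Fcgr1 was at 70.5 and 46.8 CPM, a log2 ratio of -0.59 (-0.75 to -0.43), which is as large as that over all kept cells, -0.61 (-0.74 to -0.47). Fcgr4 in the same cells was at 11.3 and 6.2 CPM (-0.87, -1.30 to -0.44). Fcgr3, at 424 and 465 CPM, went the other way with a ratio of 0.13 (0.07 to 0.19), Fcer1g was at 1902 and 1971 CPM, Fcgr2b at 90.6 and 80.5 CPM, and Fcgrt at 133 and 122 CPM. After thinning to 2000 UMIs, 12.3% of naive and 8.06% of CTX cells of this subset held an Fcgr1 UMI, beside 0.483% and 2.03% of azurophil-rich cells. The sorted libraries differ in Fcgr1 in the direction of CTX lower, while Ly6c2-high monocytes of whole BM were at 41.2 and 41.0 CPM in naive and D7 CTX BM.

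Partners of these receptors were read from gene lists, as counts beside the median gene (0.17 at D2 CTX and -0.58 at D7 CTX). Of all genes that passed the filter in whole BM, 5.4% were higher and 3.21% lower at D2 CTX. At D7 CTX 1.41% were higher and 22.3% lower. Of 21 ITAM signalling genes, 15 passed the filter in whole BM: at D2 CTX 1 was at least 1 log2 unit higher and none lower, with a median of 0.63, and at D7 CTX none was higher and 2 lower, with a median of 0.07. Fyn, a Src-family kinase found in naive BM at 395 CPM in plasmacytoid dendritic cells, 234 CPM in T cells and 2.02 CPM in neutrophils, was at 26.1 CPM in naive, 54.0 CPM at D2 CTX and 8.55 CPM at D7 CTX. Pik3r1, a regulatory subunit of PI3 kinase, was at 64.9 CPM in naive and 31.9 CPM at D7 CTX. Of 16 inhibitory signalling genes 15 and 14 passed, none was 1 log2 unit apart at D2 CTX and 1 was higher at D7 CTX, with medians of 0.56 and 0.28. That gene was Clec4a2, an ITIM-bearing lectin, at 165 CPM in naive and 346 CPM at D7 CTX. All 6 NADPH oxidase genes, whose complex makes superoxide after Fc receptor engagement, passed in both comparisons, with medians of 0.13 and 0.74, and Ncf4 was at 325 CPM in naive and 708 CPM at D7 CTX. B2m, the partner of FcRn, was 0.43 higher at D2 CTX and 0.46 lower at D7 CTX on the log2 scale.

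Of the other immunoglobulin receptors, Fcer2a (CD23) was at 7.62 CPM in naive and 22.0 CPM at D2 CTX and Fcmr, the IgM receptor, at 26.4, 54.4 and 0.618 CPM in naive BM and after 2 and 7 days. Fcrla was at 123 CPM in naive and 12.7 CPM at D7 CTX. In naive BM these 3 were highest in B cell gates, with Fcer2a at 309 CPM and Fcmr at 807 CPM in the mature B gate and Fcrla at 623 CPM in the B lineage gate. Of 11 genes in this list 3 passed at D2 CTX (2 higher, none lower) and 2 at D7 CTX (none higher, 2 lower). Among all genes that passed, 5.4% were higher at D2 CTX and 22.3% lower at D7 CTX. Among 6 receptors that pair with Fcer1g, 2 passed and both were higher at D2 CTX: Clec4e (Mincle) at 42.5 and 91.7 CPM and Clec4d at 23.9 and 85.8 CPM in naive and D2 CTX BM. Within the neutrophil gate, which held more of the cells at D2 CTX, the log2 ratios were smaller. They were 0.19 (0.09 to 0.30) for Clec4e and 0.82 (0.70 to 0.93) for Clec4d, where the median gene stood at 0.30. In the sorted monocytes Clec4e was at 101 CPM in naive and 27.5 CPM in CTX cells, the only listed gene that passed the filter and was 1 log2 unit apart there. Its log2 ratio of CPM + 1 was -1.84, against 0.03 for the median gene. Of all genes that passed in the sorted pair, 0.811% were lower. Within the Ly6c2-high monocyte gate of whole BM no listed gene that passed the filter was 1 log2 unit apart at D2 CTX or D7 CTX, but several genes under the filter were, named here after their values were seen. At D2 CTX the lectins that pair with Fcer1g were higher there on few UMIs, with Clec4n at 1.83 CPM in naive and 30.9 CPM at D2 CTX (7 and 56 UMIs), Clec4d at 7.3 and 33.6 CPM (28 and 61 UMIs) and Clec4e at 20.1 and 52.9 CPM (77 and 96 UMIs). Fyn was at 12.3 and 38.6 CPM and Dok2, an adaptor of inhibitory signalling, at 9.65 and 43.5 CPM. Fcrla was at 10.4 CPM in naive, 2.76 CPM at D2 CTX and 0.54 CPM at D7 CTX. The neutrophil marker list also differed in these cells, as given above, and its part in these values was not tested. In the neutrophil gate Lilrb4a alone of the listed genes that passed the filter was 1 log2 unit apart, at 198 CPM in naive and 87.5 CPM at D7 CTX. Of all genes that passed in this gate at D7 CTX, 2.65% were lower. Under the filter, Fcrla was at 15.9 CPM in naive and 1.49 CPM at D7 CTX (63 and 14 UMIs) in that gate, and Fyn at 2.02 CPM in naive and 7.06 CPM at D2 CTX (8 and 42 UMIs). The B lineage gate held 19.8%, 15.2% and 1.44% of kept cells in naive, D2 CTX and D7 CTX BM. The part of B cell RNA in the Fcrla values of the monocyte and neutrophil gates was not tested.

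Likeness to other genes was read over 33 profiles of a gate in a whole BM library with at least 50 cells, among 10117 genes, as a description without a test, since profiles of the same library share its depth and preparation. By Pearson r of log2(CPM + 1), the genes most like Fcgr1 were Clec4a1 (0.97), 4930455G09Rik (0.97) and Adgre4 (0.97). Those most like Fcgr3 were Mocos (0.95), Gm14005 (0.95) and Xdh (0.94), and those most like Fcgr4 were Pilra (0.93), B430306N03Rik (0.91) and Treml4 (0.89). Fcer1g was most like Tyrobp (0.95), the related adaptor DAP12, Lgals3 (0.94) and Anxa2 (0.93). Fcgrt was most like Lipa (0.89), Shtn1 (0.89) and Lrp1 (0.88). By Pearson r Fcgr2b had the weakest likeness, to Napsa (0.86), Cst3 (0.79) and Tnfaip8 (0.79). By Spearman rho the highest value of Fcgrt (Mob3b, 0.83) was under that of Fcgr2b (Napsa, 0.84). None of the genes named here for Fcgr1 or Fcgrt was among its 3 highest by Spearman rho. Among the members themselves, Fcer1g and Fcgr3 (0.85), Fcgr1 and Fcgrt (0.84) and Fcgr3 and Fcgr4 (0.80) were most alike, and Fcgr3 and Fcgrt least (0.22). By Spearman rho Fcgr1 and Fcgrt were at 0.34, while Fcer1g and Fcgr3 were at 0.88 and Fcgr3 and Fcgr4 at 0.79.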

How the data were processed

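The data were 10x Genomics 3′ V3 single-cell libraries. Per the labels and file headers, the authors made UMI counts per gene and cell with Cell Ranger 3.1 on mm10 and used Seurat 5.0. The deposited counts were used without other normalization. Cells with at least 200 genes and under 20% mitochondrial UMIs were kept, as in the study's methods. UMIs were summed over the cells of a library or gate and divided by their total (CPM). Intervals were exact Poisson (CPM), exact conditional binomial (ratios) and Clopper-Pearson (shares), all at 95%. A gate needed a mean scaled marker score of at least 0.2 and 0.1 above the best class of another family, limits set after the data were seen. Families were the GMP, pre-neutrophil and neutrophil gates, the pro-B and pre-B, B lineage and mature B gates, and the Ly6c2-high and Ly6c2-low monocyte gates. Within a family a cell went to its highest score without a margin, so boundaries there had no such gap. The limits that split sorted monocytes were likewise set after the data were seen: 1% of UMIs for specific granule genes, 0.2% for azurophil genes, 0.5% for MHC class II and 0.05% for cycling genes. Doublets were kept, and the cells with the highest Scrublet scores (scanpy 1.11.5), at a rate of 0.8% per 1000 cells, were left out as an alternative. Python 3.11.15, numpy 2.4.6, scipy 1.17.1 and pandas 2.3.3 were used, and the calls and intervals were tested on simulated data.

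The members, marker lists and gene lists were chosen with earlier results of these data known. Named were the 6 members, at most 3 genes per direction of each related list that were 1 log2 unit apart, and the 3 genes most like each member. Promoters were matched by symbol for 6 of 6 members.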

Additional observations from a re-analysis of the deposited data

Results flagged for a closer look

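Several ratios to naive BM pointed opposite ways in a pair of comparisons, with intervals of counting on opposite sides of 0. With 1 library per group, none of these differences was tested. Fcgr3 in the Ly6c2-high monocyte gate was at a log2 ratio of -0.39 at D2 CTX and 0.20 at D7 CTX. In the GMP gate Fcgr3 was at -0.39 at D2 CTX and 0.97 at D7 CTX, where the D2 CTX gate held 72 deep cells. At D2 CTX the monocyte value of Fcgr3 also stood against 0.51 in the pre-neutrophil gate. Fcer1g at D2 CTX was at -0.53 in the Ly6c2-high monocyte gate and 0.045 in the pre-neutrophil gate. Fcgr2b over the 3 B cell gates was at 0.76 at D2 CTX and -1.20 at D7 CTX, over gates whose make-up of pro-B, B lineage and mature B cells also differed. Groups of 1 library allowed no search for outlying samples.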

How the results depend on the processing

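No paired analysis was possible because each group is 1 library. Of the 6 members, the number at least 1 log2 unit apart between libraries at D2 CTX (1) became 0 with the total taken without the 20 most abundant genes, with scaling by the median of gene ratios, with the mean of each cell's CPM and with doublets left out, where the log2 ratio of Fcgr4 without the added 1 CPM was 1.03, 0.89, 0.82 and 1.02 against 1.06. At D7 CTX the number (2) became 0 with the mean of each cell's CPM, which gives shallow cells the same weight as deep ones. Genes past 1 log2 unit numbered 536, 1329 and 53 at D2 CTX, D7 CTX and in the sorted pair, and 1192, 2910 and 140 with every gene of at least 1 UMI. Scaling by the median of gene ratios gave 818 genes at D7 CTX (474 higher and 344 lower, against 79 and 1250) and turned the split at D2 CTX from 336 higher and 200 lower to 186 and 281. Without MHC class II-rich cells, an alternative chosen after the data were seen, 2 members in place of 1 were 1 log2 unit apart in monocytes, Fcgrt being added. Subtracting the T cell level gave 1 in place of 0 in the neutrophil lineage, from a D7 CTX T cell level that rests on 9 cells, and turned Fcgr3 in D7 CTX monocytes from 0.20 to -0.27, and limits 2 times higher gave 1 in place of 0 in the sorted subsets, which was Fcer1g in the MHC class II-rich cells (-1.04), a subset of few cells. Without thinning, 78 in place of 48 shares lay above those of T cells, and 4 in place of 8 shares were higher in other non-cycling than in azurophil-rich sorted monocytes, which are deeper. Fcgr3 alone over Fcgr2b gave 3.15, 3.12 and 5.65 in naive BM and after 2 and 7 days and 3.67 and 4.0 in naive and CTX sorted monocytes. Of the 18 genes named as most like a member, Spearman rho kept 8. No member called at 1 log2 unit changed sign under any alternative run.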
